A study of Saccharomyces cerevisiae with 6 samples.

Results

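The first internal transcribed spacer (ITS1) beyond processing site A2 and the 5.8S rRNA that follows it open the large-subunit side of the yeast 35S pre-rRNA. The stretch was taken by position, as nucleotides 2711 to 3019 of the 35S transcript. It holds ITS1 nucleotides 211 to 361 (151 nt) and 5.8S nucleotides 1 to 158, in all 309 of the 6858 nucleotides of the transcript. Both strains had a reactivity score at 308 of the 309, against 6542 of the 6858 of the whole transcript. The one without a score was A276 of ITS1. The deposited annotation starts the precursor 27SA2, whose 5′ end is A2, at position 2729, so by that annotation A2 lies 18 nt inside the stretch taken here.

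The RNA came from Saccharomyces cerevisiae BY4741 particles immunoprecipitated through TAP-tagged Mrd1, which binds RNA in early pre-ribosomes and is needed to make 18S rRNA. The mutant carried mrd1-deltaRDB5-TAP::K.I.TRP1 and also pGAL-HA-MRD1::URA3, and gave 2 libraries treated with 1M7 and 2 treated with the solvent DMSO. The Erb1-depleted strain carried GAL::3HA-ERB1::KAN with MRD1-TAP::URA3 (its cells are called Erb1-depleted cells here), and gave 2 libraries treated with 1M7. A GAL promoter is active in galactose and repressed in glucose. Cells were grown in YPD, which holds glucose, or in YPG/R, which holds galactose, at 30 °C, and the labels do not say which strain had which medium or for how long. Each strain therefore carries a galactose-driven gene, no strain without either change was among the samples, and the effects of the Mrd1 change and of Erb1 loss cannot be told apart. The 6 libraries appear as 1 column per strain, with no read numbers, so no value has a replicate error, its depth is unknown and no difference could be tested.

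ITS1 separates 18S from 5.8S. Cleavage at A2 parts the precursors of the small and large subunits. The large-subunit precursor is then cut at A3 by the ribonuclease MRP and trimmed by 5′ exonucleases up to B1S, the 5′ end of the short 5.8S. A minor pathway gives B1L, the 5′ end of a longer 5.8S. Erb1 belongs to the A3 factors, proteins of the large-subunit precursor that are needed for this trimming. Mature 5.8S folds into hairpins and pairs with 25S. In SHAPE, the reagent 1M7 reacts with the ribose of nucleotides that move freely. The adduct halts reverse transcription, so a paired or held nucleotide usually scores low.

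The sequences show where 1M7 marked the RNA. They run 5′ to 3′ as in the deposited transcript, and capitals mark each nucleotide modified in at least 1 strain. Modified means a posterior probability of modification of at least 0.95 from the BUM_HMM model of the authors.
ITS1 211 to 361: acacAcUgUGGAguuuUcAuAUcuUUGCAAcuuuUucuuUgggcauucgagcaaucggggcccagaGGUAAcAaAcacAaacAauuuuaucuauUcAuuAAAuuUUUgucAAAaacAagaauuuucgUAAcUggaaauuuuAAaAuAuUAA
5.8S 1 to 158: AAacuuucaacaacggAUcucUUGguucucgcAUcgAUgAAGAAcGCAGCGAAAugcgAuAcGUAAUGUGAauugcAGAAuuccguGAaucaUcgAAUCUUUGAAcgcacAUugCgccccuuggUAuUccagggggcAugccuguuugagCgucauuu
In these lines the marks lie in short runs, 26 in ITS1 beyond A2 and 20 in 5.8S, many of them single nucleotides. The lower-case stretches range from 1 nt up to 26 nt in ITS1 beyond A2 and 14 nt in 5.8S. A and U make up 68.9% of ITS1 beyond A2 and 53.8% of 5.8S.

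In both strains 1M7 marked a larger share of ITS1 beyond A2 than of the transcript as a whole, a description without a test. The mutant had 38 modified nucleotides of 151 (25.2%, Wilson 95% interval 18.9 to 32.6) and Erb1-depleted cells 46 (30.5%, 23.7 to 38.2). Across the whole transcript 18.5% of the measured nucleotides were modified in the mutant and 21.1% in Erb1-depleted cells. The part of ITS1 before nucleotide 211, 210 nt long, was sparser, with 20 modified nucleotides (9.52%) in the mutant and 22 (10.5%) in Erb1-depleted cells. The intervals take each nucleotide as an independent trial and say nothing of how libraries vary.

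5.8S was marked about as densely in both strains. The mutant had 51 modified nucleotides of 158 (32.3%, Wilson 95% interval 25.5 to 39.9) and Erb1-depleted cells 53 (33.5%, 26.7 to 41.2). The spacer on its other side, ITS2, had 16 (6.90%) in the mutant and 31 (13.4%) in Erb1-depleted cells. The strains marked mostly the same nucleotides. Of those modified in either strain, both marked 34 of 50 in ITS1 beyond A2 and 43 of 61 in 5.8S. The whole transcript had 988 of 1622.

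By base, adenosine was modified at the highest share in both pieces and both strains. In ITS1 beyond A2, 24 of 52 adenosines (46.2%) were modified in the mutant and 25 (48.1%) in Erb1-depleted cells, whereas 0 of the 25 cytidines were modified in the mutant and 1 in Erb1-depleted cells. In 5.8S, 27 of 41 adenosines (65.9%) were modified in the mutant and 26 (63.4%) in Erb1-depleted cells. Guanosines of 5.8S were the base with the widest gap, with 5 of 37 modified in the mutant and 11 in Erb1-depleted cells. Adenosine also led over the whole transcript, with 34.7% of its nucleotides modified in the mutant and 38.2% in Erb1-depleted cells. Guanosine had the widest gap there too, with 10.9% modified in the mutant and 16.4% in Erb1-depleted cells, so that gap was not particular to 5.8S.

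**Figure D1:**
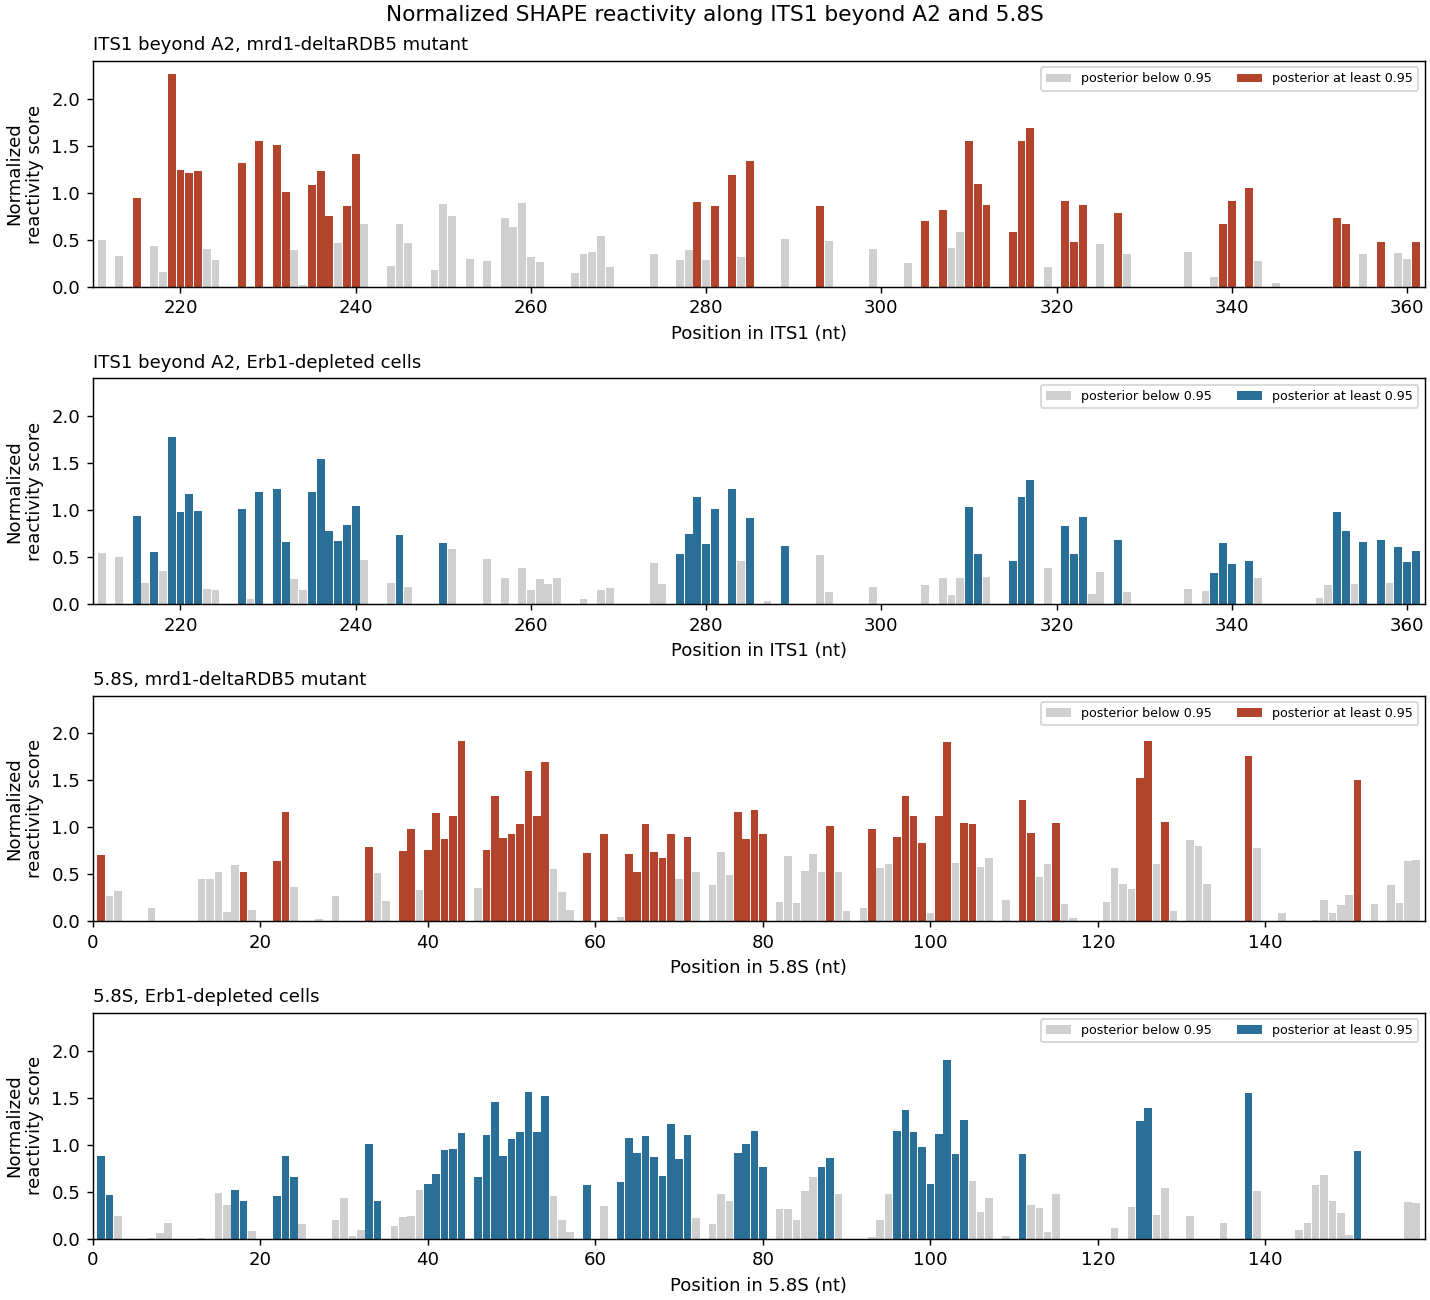
Normalized reactivity score (vertical axis, no unit) by position for ITS1 beyond A2 (upper pair of panels) and 5.8S (lower pair), the mutant above Erb1-depleted cells in each pair. Coloured bars are modified nucleotides (posterior of at least 0.95), grey bars the others; each bar is the single value of a strain. The peaks stand at mostly the same positions in both strains, the highest at U219 of ITS1 in the mutant (2.26).

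Within ITS1 beyond A2, the most reactive nucleotide was the same in both strains. U219, near the start of the stretch, had a normalized score of 2.26 in the mutant and 1.77 in Erb1-depleted cells, and a raw score of 0.434 in the mutant and 0.407 in Erb1-depleted cells. U317 followed in the mutant at 1.69, against 1.32 in Erb1-depleted cells. U236 was second in Erb1-depleted cells at 1.54, against 1.23 in the mutant. The other leading nucleotides of either strain were A229, A231, A240, A283 and A310, with normalized scores from 1.19 to 1.56 in the mutant and from 1.03 to 1.22 in Erb1-depleted cells. The raw scores of the strains followed each other along the piece (Pearson r = 0.942 over 150 nucleotides, a description, since neighbours share a library and a base composition).

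In 5.8S the top of the order was shared less closely. U102 had a normalized score of 1.91 in the mutant and 1.90 in Erb1-depleted cells, where it was the highest. In the mutant A126 (1.92, against 1.39 in Erb1-depleted cells) and A44 (1.92, against 1.12 in Erb1-depleted cells) came just above it. A138 stood at 1.75 in the mutant and 1.55 in Erb1-depleted cells. The correlation of the raw scores was lower than in ITS1 beyond A2 (Pearson r = 0.857 over 158 nucleotides).

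The longest unbroken runs of unmodified nucleotides were ITS1 251 to 276 (26 nt), 5.8S 3 to 16 (14 nt) and 5.8S 139 to 150 (12 nt). The run in ITS1 ends just before a patch beside site A3 and averaged a normalized score of 0.246 in the mutant and 0.146 in Erb1-depleted cells. The longest run modified in both strains was 5.8S 47 to 54 (8 nt), with a mean normalized score of 1.17 in the mutant and 1.23 in Erb1-depleted cells. Its raw mean was 0.225 in the mutant and 0.283 in Erb1-depleted cells.

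The raw and normalized scores weight the strains differently. Each raw column averages 0 over the transcript, and the raw scores of Erb1-depleted cells spread more widely, with an SD of 0.124 in the mutant and 0.150 in Erb1-depleted cells. A normalized score is its raw score multiplied by 5.21 in the mutant and 4.35 in Erb1-depleted cells, with negative values put at 0. A positive raw score thus gains 1.20 times as much in the mutant. In ITS1 beyond A2, 63 normalized scores in the mutant and 58 in Erb1-depleted cells stood at 0, and in 5.8S 39 in the mutant and 47 in Erb1-depleted cells did.

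As an average over the piece, ITS1 beyond A2 scored higher in the mutant on both scales. Its mean raw score was 0.0292 in the mutant and 0.0200 in Erb1-depleted cells, a difference of 0.00926. Its mean normalized score was 0.391 in the mutant and 0.337 in Erb1-depleted cells, a difference of 0.0539. By nucleotide, the raw score was higher in the mutant at 86 and in Erb1-depleted cells at 64. The normalized score was higher in the mutant at 53 and in Erb1-depleted cells at 46, with 51 at 0 in both. At 6 nucleotides the direction turned, with the raw score higher in Erb1-depleted cells and the normalized score higher in the mutant. Over the whole transcript 381 of 6542 turned so. A turn the other way cannot occur, because the mutant has the larger factor.

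The direction of that average depended on which nucleotides were counted. At the 50 nucleotides modified in at least 1 strain, the mean raw difference was −0.0129, lower in the mutant, and the mean normalized difference was 0.0912, higher in the mutant. At the 100 unmodified nucleotides the mean raw score was higher in the mutant by 0.0203. The modified nucleotides of ITS1 beyond A2 therefore have no direction that holds on both scales as an average. The whole transcript had the same split on raw scores, at −0.0311 over modified and 0.0102 over unmodified nucleotides. Its mean normalized difference at modified nucleotides was −0.0185, lower in the mutant.

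5.8S gave the same pattern. Its mean raw score was 0.0796 in the mutant and 0.0718 in Erb1-depleted cells, a difference of 0.00783. Its mean normalized score was 0.503 in the mutant and 0.430 in Erb1-depleted cells, a difference of 0.0734. At its 61 nucleotides modified in at least 1 strain, the mean raw difference was −0.0203, lower in the mutant, and the mean normalized difference was 0.0692, higher in the mutant. The raw score was higher in the mutant at 22 of these 61, and the normalized score at 33, since 11 turned. Over the whole transcript 277 of the 1621 measured nucleotides modified in at least 1 strain turned.

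Set beside its neighbours, the normalized mean was higher in the mutant in ITS1 before nucleotide 211 as well (0.321 in the mutant, 0.265 in Erb1-depleted cells) and lower in the mutant in ITS2 (0.113 in the mutant, 0.169 in Erb1-depleted cells). On raw scores the mutant minus Erb1-depleted difference was 0.0202 in ITS1 before nucleotide 211 and −0.0209 in ITS2. As averages over all nucleotides, both scales thus gave the sign in ITS2 opposite to that in ITS1 and 5.8S. At modified nucleotides the raw difference was negative in ITS2 (−0.0568) and in ITS1 before nucleotide 211 (−0.0169), as in both pieces. The normalized difference at modified nucleotides was −0.124 in ITS2 and 0.110 in ITS1 before nucleotide 211. Over the whole transcript the normalized mean was 0.249 in the mutant and 0.257 in Erb1-depleted cells.

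Local differences were called by the rule behind the deposited comparison. Raw differences were smoothed over 3 nt and standardized over the transcript, and a call needed at least 1 SD, a Z-factor above 0 and at least 3 such nucleotides in a window of 5. Only modified nucleotides were then counted. In ITS1 beyond A2, the score was called higher in the mutant at 5 nucleotides (3.33%) and in Erb1-depleted cells at 10 (6.67%). Over the whole transcript the rule called 0.810% higher in the mutant and 5.15% higher in Erb1-depleted cells. In 5.8S it called 2 (1.27%) higher in the mutant and 15 (9.49%) higher in Erb1-depleted cells.

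On normalized scores the balance of the calls turned. The Z-factor was left as deposited for raw scores, here and on the other scales used below. ITS1 beyond A2 then had 12 nucleotides (8.00%) called higher in the mutant and 4 (2.67%) called higher in Erb1-depleted cells. 5.8S had 15 (9.49%) higher in the mutant and 8 (5.06%) higher in Erb1-depleted cells. The same rule over the whole transcript gave 2.93% higher in the mutant and 4.14% higher in Erb1-depleted cells. No nucleotide was called in opposite directions on the 2 scales, in either piece or in the whole transcript. Those called on both were 4 higher in the mutant and 4 higher in Erb1-depleted cells in ITS1 beyond A2, and 2 higher in the mutant and 8 higher in Erb1-depleted cells in 5.8S. Of the 6542 measured nucleotides of the whole transcript, 42 were called on both higher in the mutant and 249 higher in Erb1-depleted cells.

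**Figure D2:**
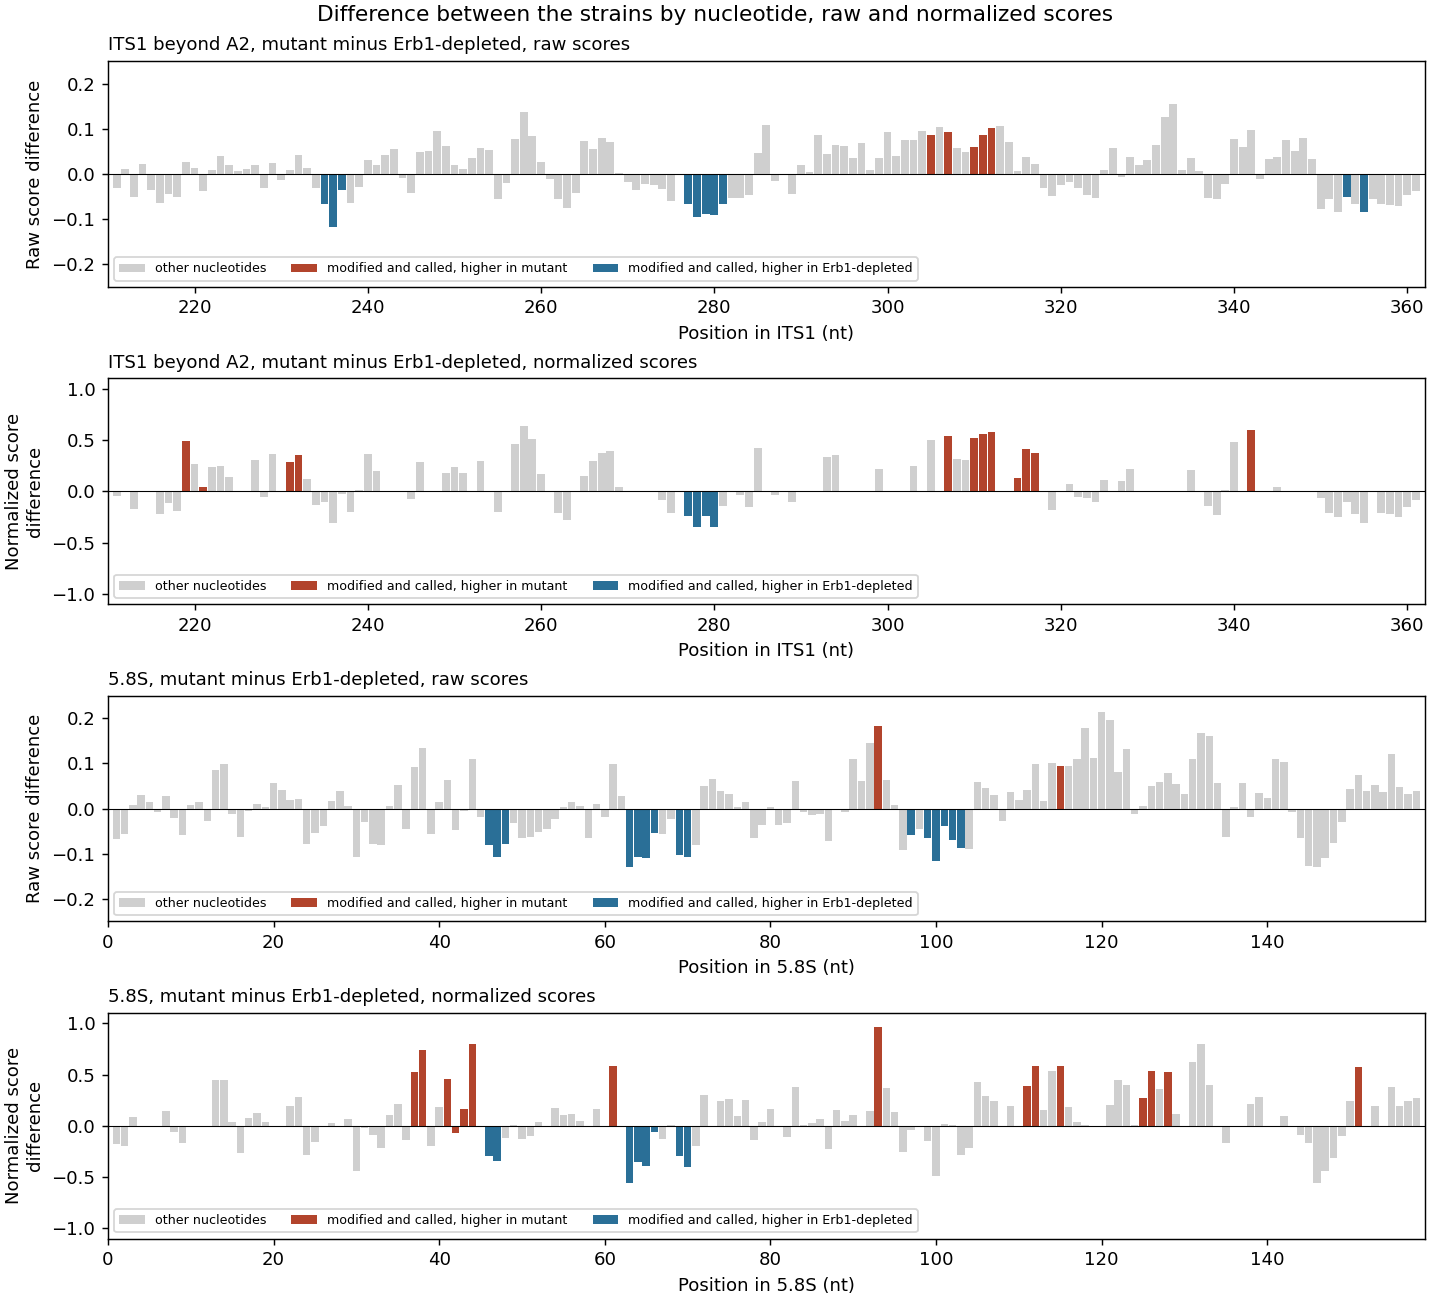
Difference of the scores, mutant minus Erb1-depleted strain, by position in ITS1 beyond A2 (upper pair of panels) and 5.8S (lower pair), raw above normalized; no error bars, as each strain has 1 value. Coloured bars are modified nucleotides called by the smoothed difference, so a bar's own height can be small or of the other sign. Blue calls, higher in Erb1-depleted cells, number 10 and 15 on raw scores and 4 and 8 on normalized scores.

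Higher in the mutant in ITS1 beyond A2 were U305, A307, A310, A311 and A312, in the U- and A-rich stretch between A3 and the 5.8S end. Capitals mark them in the sequence.
ITS1 300 to 320: ucuauUcAuuAAAuuuuuguc
U305 had a normalized score of 0.696 in the mutant and 0.201 in Erb1-depleted cells, A307 had 0.816 in the mutant and 0.282 in Erb1-depleted cells, and A312 had 0.866 in the mutant and 0.284 in Erb1-depleted cells. These 3 were modified in the mutant alone. A310 and A311 were modified in both strains, with normalized scores of 1.55 and 1.09 in the mutant, against 1.03 and 0.532 in Erb1-depleted cells. Raw scores ran the same way at all 5, from 0.134 to 0.297 in the mutant, against 0.0463 to 0.238 in Erb1-depleted cells. A310 lay at the threshold, with a standardized difference of 1.00. Cut into 6 windows of 26 nt, the last shorter, ITS1 beyond A2 had mean raw differences (mutant minus Erb1-depleted) that ran, 5′ to 3′, −0.0117, 0.0226, −0.0183, 0.0605, 0.0115 and −0.0147. On normalized scores they ran 0.0565, 0.107, −0.0182, 0.168, 0.0517 and −0.0682, so the first window turned. The fourth window, 289 to 314, holds these calls and was the most extreme of the 6 on both scales. Its raw score was higher in the mutant at 25 of 26 nucleotides. Its normalized score was higher in the mutant at 11 and in Erb1-depleted cells at 1, with 14 at 0 in both.

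Higher in Erb1-depleted cells were 10 nucleotides of ITS1 beyond A2, and 5 of them form a run beside A3. The window taken for A3 was 72 to 82 nt before 5.8S, ITS1 280 to 290, and the called run G277 to A281 reaches into its 5′ edge.
ITS1 275 to 290: gaGGUAAcaaacacaa
G278 had a normalized score of 0.395 in the mutant and 0.748 in Erb1-depleted cells, and a raw score of 0.0757 in the mutant and 0.172 in Erb1-depleted cells. A280 had a normalized score of 0.289 in the mutant and 0.634 in Erb1-depleted cells. G277 (0.283 in the mutant, 0.528 in Erb1-depleted cells), G278 and A280 were modified in Erb1-depleted cells alone, while U279 and A281 were modified in both. Of the A3 window's 11 nucleotides, 3 were modified in the mutant and 5 in Erb1-depleted cells, and its mean normalized score was 0.409 in the mutant and 0.445 in Erb1-depleted cells. Its mean raw score was 0.00235 in the mutant and 0.0203 in Erb1-depleted cells. By nucleotide, the raw score was higher in the mutant at 3 and in Erb1-depleted cells at 8. The normalized score was higher in Erb1-depleted cells at 6 and in the mutant at 1, with 4 at 0 in both. That 1 was A285, modified in both strains, at 1.34 in the mutant and 0.918 in Erb1-depleted cells.

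The other called nucleotides of ITS1 beyond A2 with higher scores in Erb1-depleted cells were U235, U236, G237, A353 and A355. U236 had a raw score of 0.236 in the mutant and 0.355 in Erb1-depleted cells. A355 was modified in Erb1-depleted cells alone, with a normalized score of 0.350 in the mutant and 0.662 in Erb1-depleted cells. All 15 called nucleotides of ITS1 beyond A2 had the same direction on both scales, although 7 of them passed the call on raw scores only.

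The end of ITS1, at B1L and B1S, was lower in the mutant throughout. Its last 10 nt, 352 to 361, had a raw score lower in the mutant at 10 of 10 nucleotides, with a mean of 0.0437 in the mutant and 0.107 in Erb1-depleted cells. The mean normalized score was 0.335 in the mutant and 0.516 in Erb1-depleted cells, and it was lower in the mutant at 9, with 1 at 0 in both. The window held 4 modified nucleotides in the mutant and 7 in Erb1-depleted cells. In the sequence, capitals mark the 2 called nucleotides.
ITS1 352 to 361: aAaAuauuaa
The first 10 nt of 5.8S were split by count, with a raw score higher in the mutant at 5 and in Erb1-depleted cells at 5. The normalized score was higher in the mutant at 3 and in Erb1-depleted cells at 4, with 3 at 0 in both. Their mean was lower in the mutant on both scales, at −0.0237 against −0.0115 raw and 0.1445 against 0.1819 normalized. These 10 nt held 1 modified nucleotide in the mutant and 2 in Erb1-depleted cells. At the other end of the piece, the first 12 nt of the stretch had 5 modified nucleotides in the mutant and 6 in Erb1-depleted cells. There the scales gave opposite directions, with a mean raw score of 0.0770 in the mutant and 0.0962 in Erb1-depleted cells and a mean normalized score of 0.693 in the mutant and 0.670 in Erb1-depleted cells.

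Marks in 1 strain alone were 4 in the mutant (A293, U305, A307 and A312) and 12 in Erb1-depleted cells in ITS1 beyond A2. In 5.8S they were 8 in the mutant (A37, U38, A61, U93, A105, U112, C115 and U128) and 10 in Erb1-depleted cells. Of those 10, 6 were guanosines, namely G24, G46, G63, G70, G87 and G103. For the whole transcript, 233 of the 1622 nucleotides modified in either strain were marked in the mutant alone and 401 in Erb1-depleted cells alone. More marks in Erb1-depleted cells alone were thus not particular to these pieces.

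In 5.8S the nucleotides called higher in Erb1-depleted cells formed 5 runs between nucleotides 46 and 103. Capitals mark them in the stretches that hold them.
5.8S 40 to 72: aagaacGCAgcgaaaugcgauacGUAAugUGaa
5.8S 90 to 105: ucaucgaAuCUUUGaa
Among the called nucleotides of the first stretch, G63 had the widest gap between the strains before smoothing on either scale, with a normalized score of 0.0490 in the mutant and 0.604 in Erb1-depleted cells and a raw score of 0.00939 in the mutant and 0.139 in Erb1-depleted cells. A65 had a normalized score of 0.520 in the mutant and 0.915 in Erb1-depleted cells. G46 (0.360 in the mutant, 0.654 in Erb1-depleted cells) and G70 (0.448 in the mutant, 0.845 in Erb1-depleted cells) were, like G63, modified in Erb1-depleted cells alone. U100 in the second stretch had 0.0906 in the mutant and 0.579 in Erb1-depleted cells.

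On normalized scores, 13 of these 15 kept their direction and 2 turned. U101 had 1.12 in the mutant and 1.11 in Erb1-depleted cells, and U102 had 1.91 in the mutant and 1.90 in Erb1-depleted cells, although the raw score of U102 was 0.367 in the mutant and 0.437 in Erb1-depleted cells. The 8 called on both scales were G46, C47, G63 to A66, U69 and G70. None of the second stretch was among them.

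Higher in the mutant in 5.8S were U93 and C115. U93 had a normalized score of 0.978 in the mutant and 0.0183 in Erb1-depleted cells, and a raw score of 0.188 in the mutant and 0.00420 in Erb1-depleted cells. Among the nucleotides both called and modified in either piece, U93 had the widest gap on both scales. It also had the largest standardized raw difference among them, at 2.02. C115 had a normalized score of 1.05 in the mutant and 0.470 in Erb1-depleted cells, and a raw score of 0.201 in the mutant and 0.108 in Erb1-depleted cells. Both were modified in the mutant alone.

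The calls were then repeated on 5 other scales of the same scores, of which the deposited normalized score is one. The others were raw scores times each strain's factor with negatives kept, raw scores at equal SD, raw scores after quantile normalization, and raw scores less a running median of 99 nt. Of the 7 nucleotides called higher in the mutant, 6 were called on all 5, namely A307, A310, A311 and A312 of ITS1 and U93 and C115 of 5.8S, and U305 was called on 4. Of the 25 called higher in Erb1-depleted cells, 0 were called on all 5, and 25 of the 25 were called on the running-median scale. These counts are in part set by the scales: the own-factor, normalized and equal-SD scales raise the mutant relative to Erb1-depleted cells by construction, and quantile normalization takes out the same gap in spread. They therefore do not show that calls in one direction are firmer than in the other. No share over the whole transcript stands beside these counts. A355 came nearest with 4, and G277 and U279 had 3. In 5.8S, 0 nucleotides were called higher in Erb1-depleted cells on the own-factor, equal-SD or quantile scale, against 15 on raw scores and 25 on the running-median scale. No called nucleotide was called in the opposite direction on any of the 5.

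**Figure D3:**
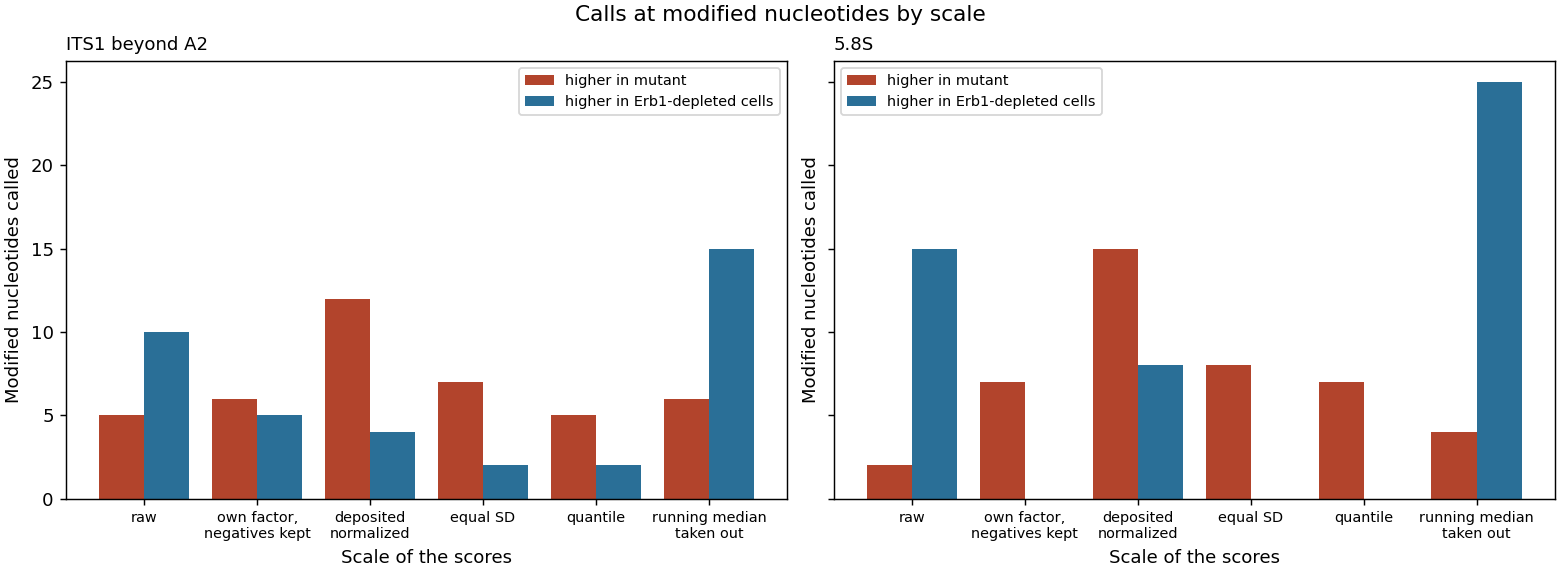
Number of modified nucleotides called (vertical axis) on the raw scale and 5 other scales, for ITS1 beyond A2 (left) and 5.8S (right), with those higher in the mutant at the left of each pair. Calls higher in Erb1-depleted cells number 15 in 5.8S on raw scores and 0 on the own-factor, equal-SD and quantile scales, while calls higher in the mutant lie between 2 and 15.

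On normalized scores alone, further calls with higher scores in the mutant fell in both pieces. In ITS1 beyond A2 they were U219, G221, A231, U232, U315 to U317 and U342. In 5.8S they lay in a patch within 37 to 44, at A61, A111, U112 and C151, and around the loop at 125 to 128. U38 had a normalized score of 0.980 in the mutant and 0.239 in Erb1-depleted cells and a raw score of 0.188 in the mutant and 0.0548 in Erb1-depleted cells. A44 had a raw score of 0.368 in the mutant and 0.257 in Erb1-depleted cells. C151 had a normalized score of 1.50 in the mutant and 0.933 in Erb1-depleted cells. A call rests on the smoothed difference, and 3 of the nucleotides so called had an own score lower in the mutant. G42 of 5.8S was lower on both scales, with a normalized score of 0.876 in the mutant and 0.942 in Erb1-depleted cells. A43 was lower on raw scores only (0.215 in the mutant, 0.220 in Erb1-depleted cells), as was G221 of ITS1 (0.231 in the mutant, 0.268 in Erb1-depleted cells).

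The 3′ part of 5.8S holds its longest inverted repeat, found by a script with Watson-Crick and GU pairs and a loop of 3 to 20 nt. It pairs 116 to 124 with 129 to 137 (9 pairs), and the capitals mark the loop.
5.8S 116 to 137: gccccuuggUAUUccagggggc
The loop had a mean normalized score of 1.28 in the mutant and 0.857 in Erb1-depleted cells, with 3 modified nucleotides in the mutant and 2 in Erb1-depleted cells. The stem had 0 modified nucleotides in either strain. Its mean normalized score was nonetheless 0.218 in the mutant and 0.0483 in Erb1-depleted cells, and its mean raw score was 0.0227 in the mutant and −0.0706 in Erb1-depleted cells. The raw score was higher in the mutant at 16 of its 18 nucleotides. Counting calls at unmodified nucleotides too, 12 of the 18 were called higher in the mutant and 0 higher in Erb1-depleted cells, while over the whole transcript 13.7% were called higher in the mutant and 11.4% higher in Erb1-depleted cells.

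A131 of the stem had a normalized score of 0.864 in the mutant and 0.241 in Erb1-depleted cells, and G132 had 0.800 in the mutant and 0 in Erb1-depleted cells. Their posteriors were near 0 in both strains. In 5.8S, 5 of the 52 nucleotides with a normalized score of at least 0.7 in the mutant were unmodified (G75, U86, A131, G132 and U139), against 0 of 40 in Erb1-depleted cells. In ITS1 beyond A2 it was 4 of 35 in the mutant (U250, G251, U257 and G259) and 0 of 26 in Erb1-depleted cells. A high normalized score in the mutant was thus not always a modified nucleotide. Because the mutant's factor is larger, 0.7 stands at a lower raw score there, so the counts of the strains are not like for like. Conversely, modified nucleotides below 0.7 in ITS1 beyond A2 were 7 of 38 in the mutant and 20 of 46 in Erb1-depleted cells. In 5.8S they were 4 of 51 in the mutant and 13 of 53 in Erb1-depleted cells.

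**Figure D4:**
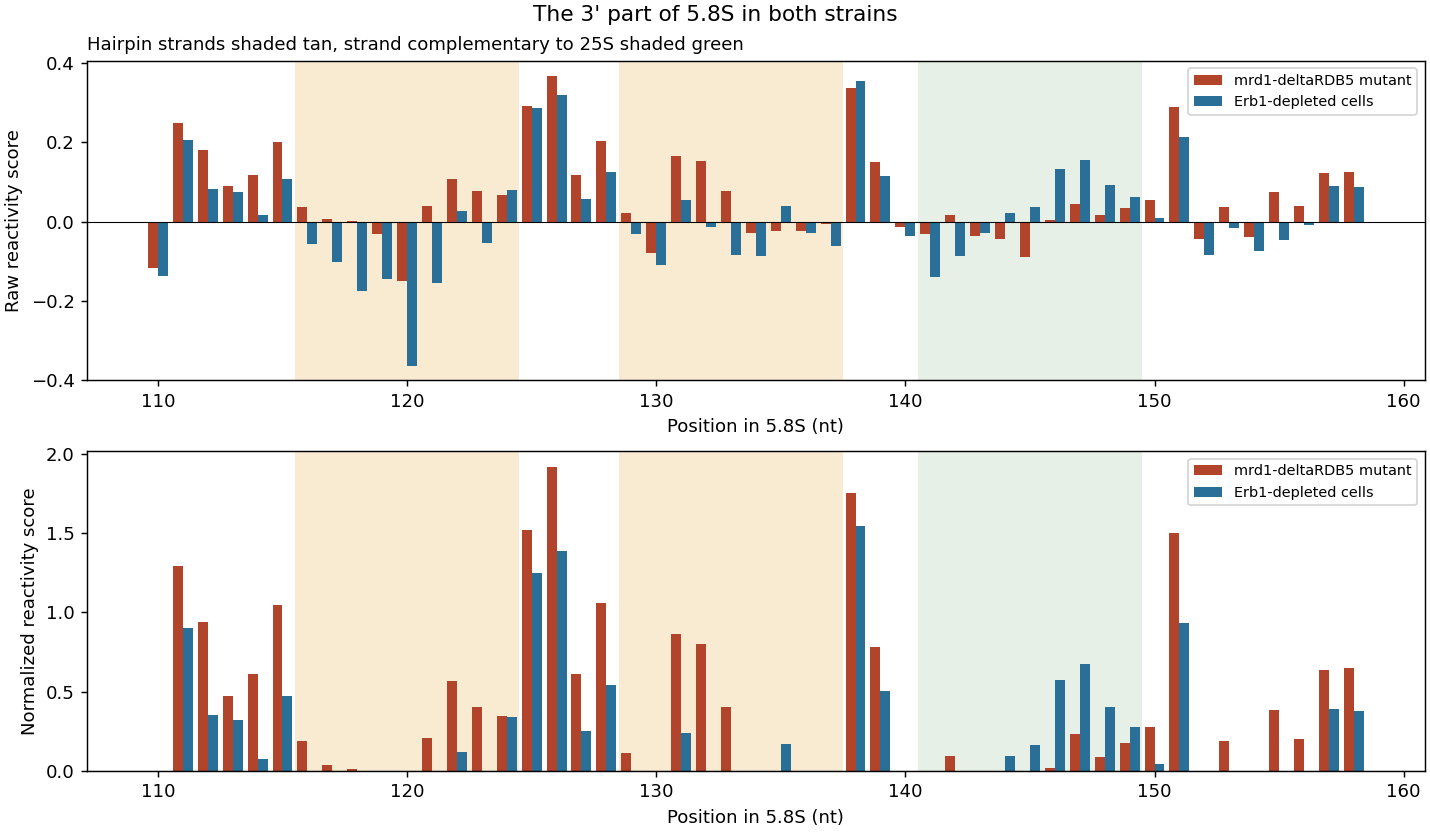
Raw (upper panel) and normalized (lower panel) reactivity scores by position over the 3′ part of 5.8S, with the mutant at the left of each pair of bars; each bar is the single value of a strain. Tan shading marks the strands of the inverted repeat, with raw scores higher in the mutant at 16 of 18 nucleotides, and green the strand complementary to 25S, with raw scores lower in the mutant at 7 of 9.

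The last 25 nt of 5.8S were searched for the longest unbroken run of pairs with the first 25 nt of 25S. GU pairs counted as pairs and no bulge was allowed. The search gave 9 pairs, some of them GU, between 5.8S 141 to 149 and 25S 14 to 22. A bulged pairing in another register was not searched for, and whether this pairing forms was not tested.
5.8S 141 to 149: CCUGUUUGA
25S 14 to 22: UCAGGUAGG
The strand of 5.8S had 0 modified nucleotides in either strain. Its mean normalized score was 0.0670 in the mutant and 0.242 in Erb1-depleted cells, and its mean raw score was −0.00952 in the mutant and 0.0271 in Erb1-depleted cells. U146 had a normalized score of 0.0162 in the mutant and 0.576 in Erb1-depleted cells, and U147 had 0.231 in the mutant and 0.673 in Erb1-depleted cells. Counting unmodified nucleotides, 5 of the 9 were called higher in Erb1-depleted cells and 2 higher in the mutant. Relative to Erb1-depleted cells, the mutant thus scored higher over the hairpin stem and lower over the strand complementary to 25S on both scales, all at nucleotides that neither strain counted as modified.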

How the data were processed

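All values came from 1 deposited sheet with a line for each nucleotide of the 35S transcript. Per the labels' protocols, SuperScript III copied the RNA from random hexamers and CircLigase II added the 5′ adapter. The submitters' processing notes name Novoalign as the aligner, without a version. Per the file headers, the deposited scores are a raw SHAPE reactivity, a 2% to 8% normalized reactivity, a BUM_HMM posterior and a deltaSHAPE comparison, each with 1 column per strain or comparison. Columns headed D5 were read as the mutant and DErb1 as the Erb1-depleted strain. How raw scores were computed, and what served as the control for the Erb1-depleted strain, the sources used here do not state. Nucleotides marked as without sufficient coverage were dropped.

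The call rule was inferred from the deposited columns and tested on simulated data. Recomputed in Python 3.11.15 with numpy 2.4.6 and pandas 2.3.3, it gave 1646 calls over the transcript, 390 of them at modified nucleotides, and 0 of these were unlike the calls in the authors' deposited table. As deposited, ITS1 overlaps 18S by 1 nt, so regions were laid end to end. The RefSeq table then puts 5.8S at 2862 to 3019 of the 35S gene, the same bounds. Named nucleotides are those called at modified positions, the 5 most reactive per piece and strain (at most 1 per 5 nt), those modified in 1 strain alone, windows at A2, A3 and the 5.8S start, the inverted repeat and the strand complementary to 25S. Others were chosen after their values were seen, as was the division of ITS1 beyond A2 into 6 windows. They are A285 of ITS1, those with a high score but no mark, and those called on normalized scores alone. The last include U38, G42, A43, A44, A61, C151 and G221. The stretch, the windows and the rules were chosen with earlier results of these data known.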

Additional observations from a re-analysis of the deposited data

How the results depend on the processing

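Of 80 alternatives to 12 results, 45 left the value about where it was, 33 moved it by more than the limit set and 2 reversed it. No paired analysis was possible because the sheet has 1 column per strain, so libraries could neither be paired nor left out. The depth is unknown. The cause of each move was not tested unless the alternative's own construction shows it. The 2 reversals were the mean raw differences (mutant minus Erb1-depleted) over only the nucleotides modified in at least 1 strain, at −0.0129 in ITS1 beyond A2 and −0.0203 in 5.8S, against 0.00926 and 0.00783 over all nucleotides. With each strain's own factor and negatives kept these became 0.0654 and 0.102, scaled to equal SD 0.103 and 0.164, quantile-normalized 0.0141 and 0.0220, and less a running median of 99 nt 0.00519 in 5.8S. The first 2 of these are in other units, so only their sign compares. They still count among the 33 moved, by a ratio to the raw value that the change of unit alters. The normalized difference of ITS1 beyond A2 was 0 as a median and 0.0912 at modified nucleotides, and that of 5.8S was 0.00759 as a median.

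Calls higher in the mutant, 5 in ITS1 beyond A2, became 12 on normalized scores, 15 without the filter on modified nucleotides and 0 at a threshold of 2 SD. In 5.8S the 2 became 7 with own factors, 15 on normalized scores, 8 scaled to equal SD, 7 quantile-normalized, 4 less the running median, 25 without the filter, 6 without smoothing and 0 at 2 SD. Calls higher in Erb1-depleted cells, 10 in ITS1 beyond A2, became 5 with own factors, 4 on normalized scores, 2 scaled to equal SD, 2 quantile-normalized, 4 without smoothing and 0 at 2 SD. In 5.8S the 15 became 0 with own factors, 8 on normalized scores, 0 scaled to equal SD, 0 quantile-normalized, 25 less the running median and 0 at 2 SD. Shares of modified nucleotides moved by less than their intervals at posterior thresholds of 0.9 and 0.99.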
